A study of Homo sapiens
Mus musculus with 16 samples.

Results

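The host compartment of ScaBER xenografts was examined for 41 mouse genes of natural killer (NK) and T lymphocytes, a list drawn from textbook roles of the genes and matched by symbol among the 23337 genes of the mouse expression table. ScaBER is an established human bladder cancer cell line. It was grown in Hsd:Athymic Nude-Foxn1nu mice, so that every group, controls included, carried the Foxn1nu allele. The 16 tumour libraries fell into 4 groups of 4: vehicle (0.5% methylcellulose with 0.1% Tween80), nintedanib at 40 mg/kg, alpelisib at 25 mg/kg, and the combination of nintedanib at 40 mg/kg with alpelisib at 25 mg/kg, each given for 14 days. Nintedanib inhibits the VEGF, FGF and PDGF receptor tyrosine kinases, and alpelisib (BYL719) inhibits the p110-alpha subunit of PI3K. The labels give neither the age nor the sex of the mice, and they do not tie libraries to separate animals. The p-values therefore rest on the variation among libraries, part of which may be technical. The study asked how the 2 drugs act together in tumour cells and in the stroma, for which human and mouse reads were told apart by mapping.

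T cells carry an antigen receptor that signals through the CD3 chains, the kinases Lck and Zap70 and the adaptor Lat. They mature in the thymus, which Foxn1 mutation leaves without a working epithelium, so athymic nude mice have few mature T cells but keep NK cells, B cells and myeloid cells. NK cells develop in the bone marrow, are poised to kill through perforin and granzymes, read stress ligands and MHC molecules through receptors such as NKp46, NKG2D and CD94, and secrete interferon gamma and the chemokines Ccl5 and Xcl1. Many of the surface and signalling proteins of the list are shared by the 2 lineages. In whole tumours, fewer cells of a type and less RNA per cell cannot be told apart.

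Values are whole reads divided by 1 size factor per library, named normalized values here, and values are listed from library 1 to library 4 of each group. The libraries held 3606008 to 6850491 mouse reads and 8303617 to 18568119 human reads, and the mouse share of the total was 19.3 to 34.0%. A count of 3 reads, the upper limit that a count of 0 allows, was worth 1.96 to 4.09 units in the mouse table, counting error only. Summed skeletal muscle markers stood apart in the libraries nintedanib 4 and combination 1 (186399 and 106582 units, against 69.2 to 24704 elsewhere), and summed skin markers in alpelisib 1 (11593 against 1288 to 4410).

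Host lymphocyte transcripts were scarce. All 41 genes had a row, 14 had a read in every library, 20 had a mean value under 10 and 5 a mean of 50 or more. Txk, Sh2d1a and Trat1, with 11, 4 and 3 reads in all 16 libraries, did not reach a value of 1 in at least 4 libraries and were not tested, which left 38 members among 17484 tested genes. Klre1 and Ifng were just inside that limit, each with 4 libraries at 1 or more and with 11 and 40 reads in all. Of the 4 libraries that carried Ifng over the limit, 3 were combination libraries, so its difference from the other groups is in part a condition of its being tested. Defining markers of both lineages were detected at low values, with the CD3 chains and Cd8a for T cells and Ncr1 and Klrb1c for NK cells. The T cell receptor chains themselves (9 symbols, Trac and Trbc1 among them) had no row under these symbols. CD3 chains in T cells and in other lymphocytes therefore cannot be told apart.

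Values of the 40 members other than Thy1, summed per library, came to 435, 321, 451 and 559.6 with vehicle, 521, 525, 564 and 1633 with nintedanib, 456, 400.3, 583 and 601 with alpelisib and 544, 2270.4, 1400.2 and 595 with the combination. The libraries nintedanib 4, combination 2 and combination 3 were far above all others, and the other 13 libraries lay within 321 to 601. Combination 2 held the highest value of 23 of the 38 tested members (60.5%), against 5.67% of all tested genes, combination 3 of 6 members (15.8%, against 7.38%) and nintedanib 4 of 5 members (13.2%, against 7.94%). For 16 members these 3 libraries were also the 3 highest of all 16, namely Cd3d, Cd3e, Cd3g, Cd247, Cd7, Lck, Zap70, Lat, Il2rb, Ncr1, Nkg7, Gzma, Klrk1, Ifng, Eomes and Ccl5. The same was true of 140 of all 17484 tested genes (0.801%). These 3 libraries were picked by the members' own values, which favours the members in this comparison. Combination 2 had the most mouse reads (6850491), while nintedanib 4 and combination 3 had 4275224 and 4106878, and the part of depth in this pattern was not tested.

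**Figure D1:**
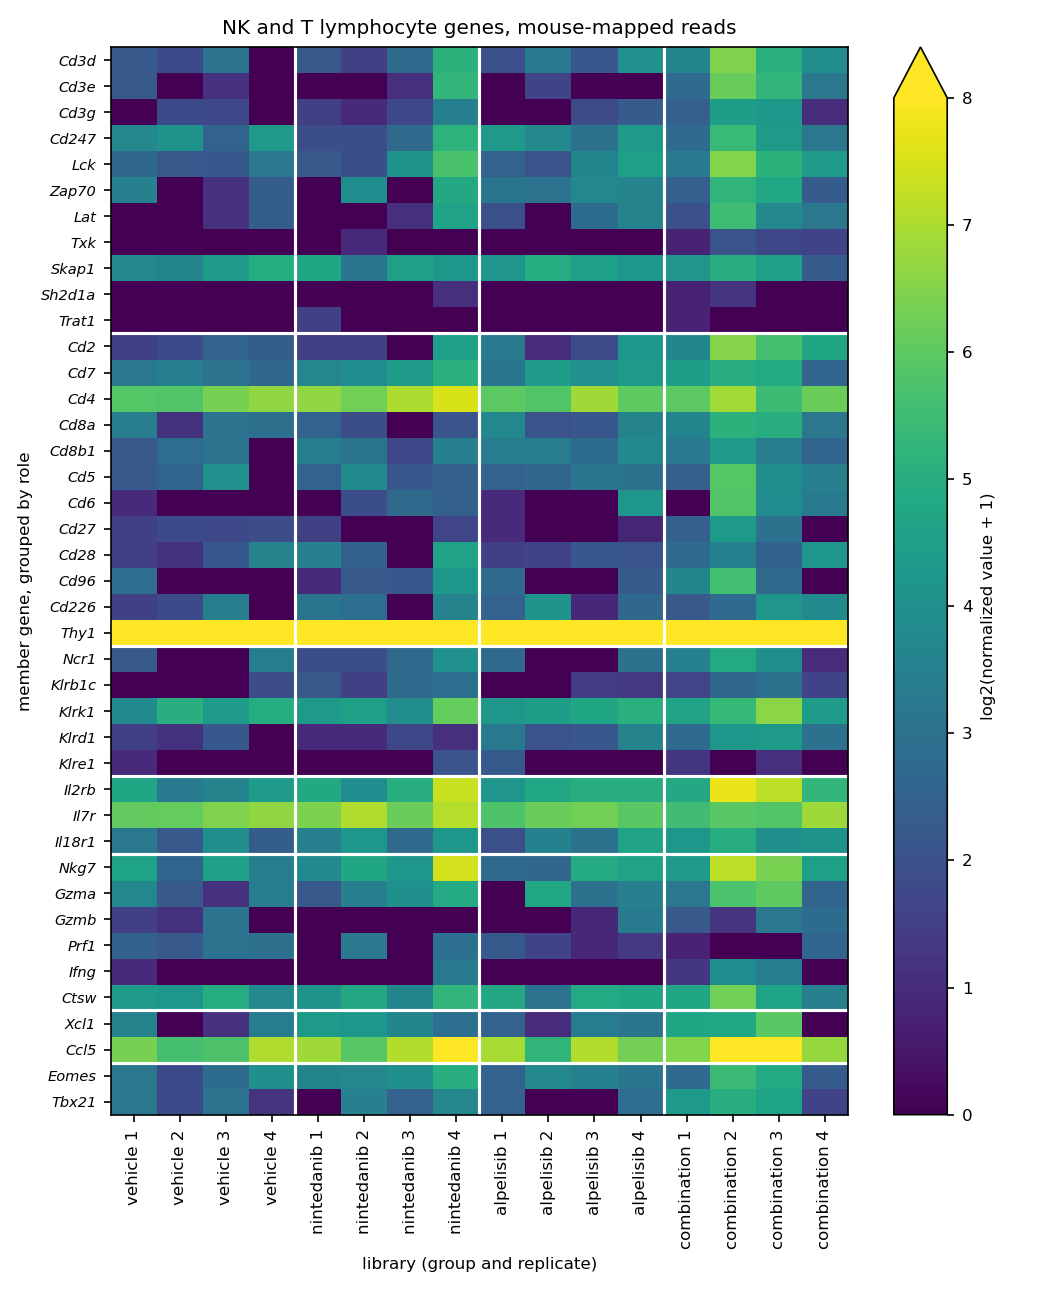
Log2(normalized value + 1) of the 41 member genes (rows, grouped by role and separated by white lines) in the 16 libraries (columns, 4 per group). The colour scale ends at 8 and Thy1 lies above it in every library. The columns nintedanib 4, combination 2 and combination 3 hold the 3 highest values for 16 of the 38 tested members. Rows such as Skap1, Ctsw, Prf1, Gzmb and Il7r are not among these.

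**Figure D2:**
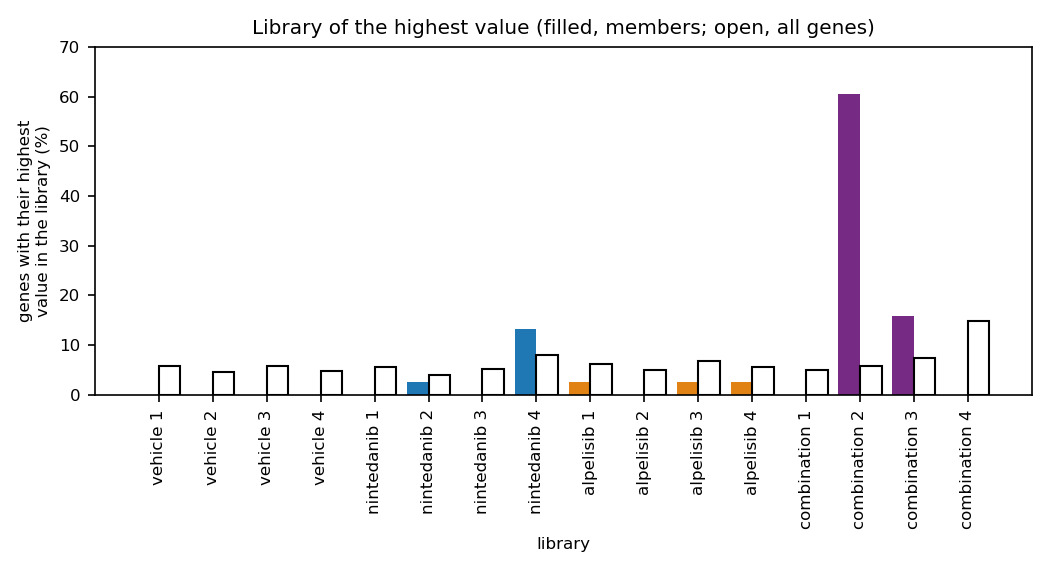
Share of genes (percent, vertical axis) whose highest value lies in each library, for the 38 tested members (filled bars, coloured by group) and for all 17484 tested mouse genes (open bars). Combination 2 holds the maximum of 60.5% of the members and of 5.67% of all genes.

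The CD3 chains carry the signal of the T cell receptor. Cd3d stood at 3.69, 2.49, 7.24 and 0 with vehicle, 3.73, 1.85, 5.86 and 34.3 with nintedanib, 2.83, 8.32, 3.47 and 15.7 with alpelisib and 11.1, 86.2, 33.3 and 14.2 with the combination. Cd3e stood at 3.69, 0, 1.21 and 0 with vehicle, 0, 0, 1.17 and 38.7 with nintedanib, 0, 2.08, 0 and 0 with alpelisib and 5.92, 69.9, 37.8 and 8.11 with the combination. Every combination library exceeded every vehicle library for both genes, and nintedanib 4 was the only library outside the combination group above 16 for either. Cd3g, the remaining invariant chain, had 0, 2.49, 2.41 and 0 with vehicle, 1.87, 0.923, 2.34 and 9.95 with nintedanib, 0, 0, 2.60 and 3.92 with alpelisib and 4.44, 21.5, 18.3 and 1.01 with the combination. Together the 3 chains had 8, 4, 9 and 0 reads with vehicle, 6, 3, 8 and 75 with nintedanib, 3, 10, 7 and 25 with alpelisib, and 29, 272, 78 and 23 with the combination. In 10 of the 16 libraries the sum was 10 reads or fewer. Cd247, the zeta chain that NK cells use as well, had 11.99, 16.2, 4.83 and 19.1 with vehicle, 2.80, 2.77, 5.86 and 35.4 with nintedanib, 18.9, 12.5, 6.93 and 18.8 with alpelisib and 5.92, 41.1, 19.5 and 8.11 with the combination. Its vehicle and alpelisib libraries overlapped combination 1 and combination 4, and only nintedanib 4 and combination 2 exceeded 20.

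Lck is the kinase that phosphorylates the CD3 chains and is present in T and NK cells. Its values were 5.53, 3.73, 3.62 and 8.19 with vehicle, 3.73, 2.77, 16.4 and 50.9 with nintedanib, 4.72, 3.12, 11.3 and 21.9 with alpelisib and 8.87, 91.4, 34.4 and 20.3 with the combination. All 4 combination libraries lay above the vehicle range of 3.62 to 8.19, while nintedanib 3 and 4 and alpelisib 3 and 4 overlapped the combination. Zap70, the kinase recruited to the phosphorylated chains, had group means of 3.86 ± 4.53 with vehicle, 10.4 ± 13.2 with nintedanib, 9.48 ± 2.44 with alpelisib and 17.9 ± 16.3 with the combination (SD, n = 4 each). Lat, the membrane scaffold that Zap70 phosphorylates, had 1.33 ± 1.93, 6.10 ± 11.4, 4.97 ± 4.71 and 17.2 ± 19.00 in the same order. Except for Zap70 with alpelisib, each SD was close to its mean or above it. Skap1, an adaptor that links the receptor to integrins, did not follow them. It had 11.99, 11.2, 20.5 and 30.03 with vehicle, 25.2, 7.38, 22.3 and 17.7 with nintedanib, 17.00, 30.2, 21.7 and 18.02 with alpelisib and 17.01, 30.7, 22.9 and 4.05 with the combination, and its groups overlapped throughout. Txk, a Tec-family kinase, reached a value of 1 only in combination 2, 3 and 4, and had 10 of its 11 reads in the combination. The adaptors Sh2d1a and Trat1 had 3 of 4 and 1 of 3 reads there.

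Cd2, an adhesion and costimulatory receptor of T and NK cells, had 1.84, 2.49, 4.83 and 4.09 with vehicle, 1.87, 1.85, 0 and 22.1 with nintedanib, 8.50, 1.04, 2.60 and 17.2 with alpelisib and 11.8, 92.1, 49.3 and 25.3 with the combination. The combination libraries were all above the vehicle libraries, and combination 1 was below nintedanib 4 and alpelisib 4. Cd7, a surface protein of the same cells, had 8.30, 9.95, 7.24 and 5.46 with vehicle, 12.1, 13.8, 19.9 and 33.2 with nintedanib, 7.56, 19.8, 15.6 and 18.8 with alpelisib and 21.4, 30.7, 28.7 and 5.07 with the combination. The lowest nintedanib value of Cd7 was above the highest vehicle value, and combination 4 was below all vehicle libraries. The share of all genes with such a separation of nintedanib from vehicle was not computed. Cd5 and Cd6, scavenger-type receptors that dampen T cell receptor signals, had 118 and 107 reads with the combination against 21 and 1 with vehicle, and combination 2 alone reached 58.1 and 56.2 units.

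Cd8a, which pairs with Cd8b1 on cytotoxic T cells and is also found on some dendritic cells, had 9.22, 1.24, 7.24 and 6.82 with vehicle, 4.66, 2.77, 0 and 3.32 with nintedanib, 12.3, 3.12, 3.47 and 10.97 with alpelisib and 11.1, 34.6, 30.96 and 8.11 with the combination. Only combination 2 and 3 exceeded 20. Cd8b1 had 3.69, 6.22, 7.24 and 0 with vehicle, 9.33, 7.38, 2.34 and 9.95 with nintedanib, 9.44, 9.36, 6.07 and 13.3 with alpelisib and 8.87, 18.9, 9.17 and 5.07 with the combination, and its groups overlapped. Cd4, the coreceptor of helper T cells, which some myeloid cells carry as well, had 58.1, 55.98, 80.9 and 101 with vehicle, 102, 78.4, 129 and 184 with nintedanib, 62.3, 56.1, 114 and 63.4 with alpelisib and 62.9, 118, 43.6 and 72.99 with the combination. Nintedanib 4 and nintedanib 3 were the 2 highest libraries for Cd4, and the combination mean of 74.2 ± 31.3 was close to the vehicle mean of 73.98 ± 21.2 (SD, n = 4).

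Among the costimulatory receptors, Cd27, a TNF-receptor family member, had 1.84, 2.49, 2.41 and 2.73 with vehicle, 1.87, 0, 0 and 2.21 with nintedanib, 0.944, 0, 0 and 0.783 with alpelisib and 4.44, 19.6, 6.88 and 0 with the combination. Alpelisib held 2 reads of it in all and the combination 42, of which most were in combination 2. Cd28 had 4.41, 9.52, 2.64 and 9.55 units on average in the 4 groups, and vehicle libraries overlapped those of every other group. Cd96 and Cd226, which compete for the nectin-family ligand Pvr, had combination means of 16.1 ± 21.1 and 9.99 ± 6.29 against 1.61 ± 3.23 and 3.497 ± 4.24 with vehicle (SD, n = 4), and Cd96 was at 0 in combination 4. Thy1, which marks mouse T cells but is also made by fibroblasts, had 4374, 2786, 4568 and 3933 with vehicle, 4758, 3573, 3836 and 1600.2 with nintedanib, 3419.7, 3167, 5784 and 2669 with alpelisib and 2627, 4621, 2833 and 3151 with the combination. It did not share the pattern of the other members, and its lowest value was in nintedanib 4.

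Ncr1 encodes NKp46, the receptor most often used to define mouse NK cells. It had 3.69, 0, 0 and 9.55 with vehicle, 2.80, 2.77, 5.86 and 15.5 with nintedanib, 5.67, 0, 0 and 7.05 with alpelisib and 10.4, 28.7, 14.9 and 1.01 with the combination. The first 3 combination libraries were above all vehicle libraries, and combination 4 was at 1 read. Klrb1c, the NK1.1 antigen, had 0, 0, 0 and 2.73 with vehicle, 3.73, 1.85, 5.86 and 6.64 with nintedanib, 0, 0, 1.73 and 1.57 with alpelisib and 2.22, 5.22, 6.88 and 2.03 with the combination. Vehicle libraries 1 to 3 had no read of it, whereas every nintedanib and every combination library had at least 1. Klrk1, or NKG2D, the receptor for stress-induced ligands, had 12.9, 31.1, 19.3 and 30.03 with vehicle, 18.7, 22.1, 14.1 and 68.6 with nintedanib, 17.9, 20.8, 25.1 and 32.9 with alpelisib and 24.4, 39.8, 97.5 and 20.3 with the combination. Klrd1, or CD94, the partner of the NKG2 receptors that bind Qa-1, had 1.84, 1.24, 3.62 and 0 with vehicle, 0.933, 0.923, 2.34 and 1.11 with nintedanib, 8.50, 3.12, 3.47 and 10.97 with alpelisib and 5.92, 18.3, 19.5 and 7.10 with the combination. Klrd1 was the 1 NK receptor whose combination libraries were all above the vehicle range, and its alpelisib libraries were above all but 1 of the vehicle libraries. Klre1, a lectin-like receptor of the same gene cluster, had 1, 3, 4 and 3 reads in the 4 groups.

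Il2rb is the beta chain shared by the receptors for interleukins 2 and 15, on which NK cells depend. It had 25.8, 8.71, 10.9 and 20.5 with vehicle, 27.98, 13.8, 30.5 and 158 with nintedanib, 17.00, 27.03, 30.3 and 30.5 with alpelisib and 27.4, 215, 146 and 38.5 with the combination. All 4 combination libraries exceeded the vehicle range, of which combination 1 did so by little, and nintedanib 4 lay between combination 2 and combination 3. Il7r, the receptor for interleukin 7, needed by T cells and innate lymphoid cells, had 66.4, 68.4, 85.7 and 101 with vehicle, 83.95, 130.1, 70.3 and 136 with nintedanib, 54.8, 70.7, 77.1 and 61.1 with alpelisib and 45.8, 60.7, 56.2 and 114 with the combination. Its highest values were in nintedanib 2, nintedanib 4 and combination 4, and combination 1, 2 and 3 were below the vehicle range. Il18r1, a receptor chain that primes interferon gamma release, had group means of 7.65 ± 5.004, 12.8 ± 5.80, 11.1 ± 9.31 and 19.9 ± 7.29 (SD, n = 4), and its combination libraries were all above those of vehicle.

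Among genes of killing and effector function, Nkg7, a protein of cytotoxic granules, had 23.97, 4.98, 22.9 and 9.55 with vehicle, 13.1, 24.9, 17.6 and 174 with nintedanib, 5.67, 5.20, 29.5 and 23.5 with alpelisib and 19.2, 148, 83.7 and 22.3 with the combination. Nintedanib 4 was the highest library and combination 2 the next. Gzma, the granule protease granzyme A, had 11.99, 3.73, 1.21 and 9.55 with vehicle, 3.73, 10.1, 15.2 and 28.8 with nintedanib, 0, 27.03, 6.93 and 10.2 with alpelisib and 8.13, 52.2, 64.2 and 5.07 with the combination. Combination 3 and 2 were highest and combination 1 and 4 fell within the vehicle range. Ctsw, a cathepsin of NK and cytotoxic T cells, had 19.4, 17.4, 30.2 and 12.3 with vehicle, 15.9, 27.7, 11.7 and 37.6 with nintedanib, 27.4, 7.28, 28.6 and 25.1 with alpelisib and 25.1, 77.1, 24.1 and 10.1 with the combination. Only combination 2 exceeded 40 for Ctsw.

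Granzyme B and perforin had few reads in every library. Gzmb had 1.84, 1.24, 7.24 and 0 with vehicle, 0 in all 4 with nintedanib, 0, 0, 0.867 and 8.62 with alpelisib and 3.70, 1.31, 8.03 and 6.08 with the combination, so it was listed without a read in nintedanib 4, where Nkg7 and Gzma were high. Prf1, the pore-forming protein, had 4.61, 3.73, 7.24 and 6.82 with vehicle, 0, 8.30, 0 and 6.64 with nintedanib, 3.78, 2.08, 0.867 and 1.57 with alpelisib and 0.739, 0, 0 and 5.07 with the combination. Combination 2 and 3, with the most reads of the CD3 chains, had no Prf1 read, and all 4 vehicle libraries had some. Ifng, the cytokine interferon gamma, had 0.922, 0, 0 and 0 with vehicle, 0, 0, 0 and 8.85 with nintedanib, 0 in all 4 with alpelisib and 1.48, 13.7, 9.17 and 0 with the combination. Reads of Ifng were present in 5 libraries, including nintedanib 4, combination 2 and combination 3, and 39 of its 40 reads came from the nintedanib and combination groups.

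The chemokine Ccl5, made by NK and T cells and by macrophages and other stimulated cells, had 80.2, 48.5, 53.1 and 131 with vehicle, 116, 59.97, 134 and 366 with nintedanib, 122, 36.4, 133 and 79.1 with alpelisib and 90.95, 562, 308 and 105 with the combination. Combination 2, nintedanib 4 and combination 3 were the only libraries above 135. Xcl1, which attracts cross-presenting dendritic cells, had combination values from 0 in combination 4 to 60.8 in combination 3, against 0 to 11.1 with vehicle, 6.64 to 19.6 with nintedanib and 1.04 to 9.53 with alpelisib. Eomes and Tbx21 encode the T-box factors of NK and effector T cells. Eomes had 8.30, 2.49, 6.03 and 15.01 with vehicle, 11.2, 11.99, 15.2 and 32.1 with nintedanib, 4.72, 12.5, 10.4 and 7.83 with alpelisib and 5.92, 43.1, 28.7 and 4.05 with the combination. Tbx21 had 8.30, 2.49, 7.24 and 1.36 with vehicle, 0, 10.1, 4.69 and 12.2 with nintedanib, 4.72, 0, 0 and 6.27 with alpelisib and 18.5, 30.7, 24.1 and 2.03 with the combination. Combination 2 and 3 were the 2 highest libraries for Tbx21 and 2 of the 3 highest for Eomes, and combination 4 was below the vehicle mean for both.

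**Figure D3:**
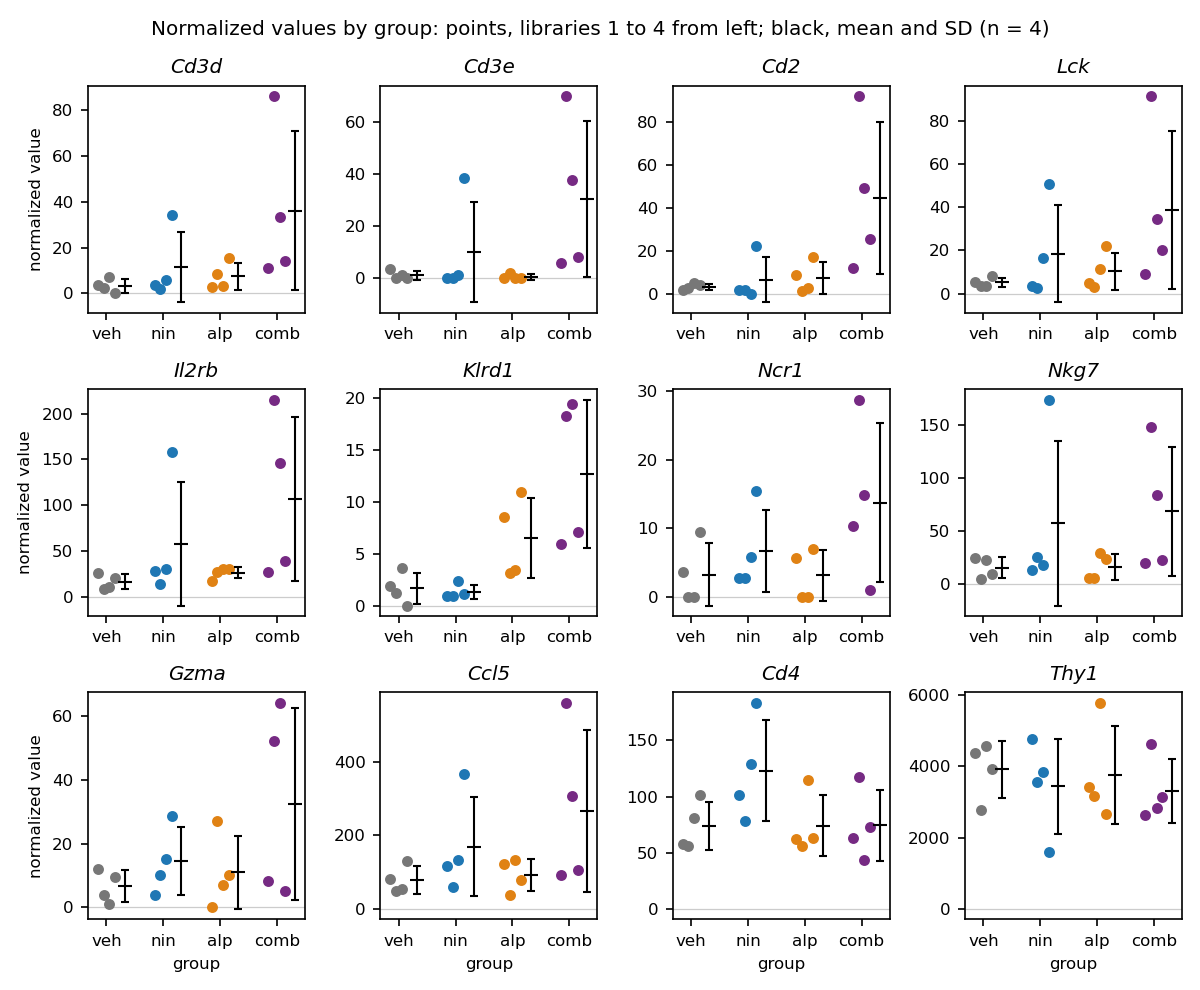
Normalized values (vertical axes, linear, own scale per panel) of 12 member genes in the 4 groups; coloured points are libraries 1 to 4 from left to right, and black marks are the group mean and SD (n = 4). For Cd3d, Cd3e, Cd2, Lck, Il2rb and Klrd1 every combination point lies above every vehicle point, while Ncr1, Nkg7, Gzma, Ccl5, Cd4 and Thy1 overlap. The 12 genes are a selection that does not represent the list. Of the 38 tested members, 7 (18.4%) had all combination values above vehicle, against 2.01% of all genes. Prf1, Gzmb, Il7r and Skap1, which overlapped, are not shown.

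The combination was first compared with vehicle. In that comparison 33 of the 38 tested members had a fitted change above 0, against 53.0% of all genes (48.9 to 53.0% over the 8 comparisons). When values were scaled to the human plus mouse total these were 37 members and 76.2% of all genes, whose median was then 0.32. Without that scaling the members' median was 1.59 on the log2(value + 1) scale, a scale that understates the change of genes with few reads. The median of all 17484 genes was 0.03. None of the members passed the threshold (limma with Benjamini-Hochberg adjustment over all genes, adjusted p under 0.05), against 9 of all genes, or 0.0515%. The smallest adjusted p of a member was 0.227. On the whole reads recovered from the values, edgeR called no member either, and DESeq2 called Cd2, Cd3d and Il2rb, with adjusted p of 0.0209, 0.0408 and 0.0191 among 75 genes (0.429%). Without the 2 muscle-rich libraries limma called Cd3e (adjusted p = 0.0452) and Il2rb (adjusted p = 0.0474) of 36 members tested, among 24 of 17095 genes (0.14%). The libraries left out there include combination 1, which had the lowest combination value of both genes (5.92 and 27.4). At an unadjusted p under 0.05 stood 20 members (52.6%), 19 of them higher and Prf1 lower, against 1341 genes or 7.67% of all. For 7 members (18.4%), namely Cd3d, Cd3e, Cd2, Lck, Il2rb, Il18r1 and Klrd1, all 4 combination values were above all 4 vehicle values, as for 351 genes or 2.01% of all. For no member were all 4 below, against 322 genes or 1.84%. Without combination 2 the number at an unadjusted p under 0.05 went from 20 to 7, without combination 3 to 10 and without vehicle 4 to 12. Without combination 4 it rose to 27. The median change stayed between 1.29 and 1.92 when any 1 library was left out.

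The genes with the smallest p in that comparison were Klrd1, Cd3d and Cd2. Klrd1 was 2.39 higher on the log2(value + 1) scale (SE 0.60, limma adjusted p = 0.227), from 1.68 ± 1.51 to 12.7 ± 7.18 (SD, n = 4). Cd3d was 3.0 higher (SE 0.83, limma adjusted p = 0.305), from 3.35 ± 3.01 to 36.2 ± 34.8. Cd2 was 3.10 higher (SE 0.86, limma adjusted p = 0.306), from 3.31 ± 1.38 to 44.6 ± 35.2. None of these 3 differences passed the threshold, and the SD of the combination group was of the order of its mean for Cd3d. The largest fitted difference was that of Cd3e, 3.51 (SE 1.0).

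By role, the 8 tested genes of the T cell receptor complex and its signalling had a median difference of 2.21 from vehicle in the combination, with 7 above 0 and 5 at an unadjusted p under 0.05. The 12 surface proteins had a median of 1.47 (10 above 0, 7 at that level), the 5 NK receptors 1.75 (5 above 0, 2 at that level) and the 3 cytokine receptors 1.39 (2 above 0, 2 at that level). For the 6 granule and effector genes the median was 1.35, with Ifng and Nkg7 higher and Prf1 lower at that level. The 2 chemokines had a median of 1.65 and the 2 transcription factors 1.23. No role held a gene past the adjusted threshold.

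**Figure D4:**
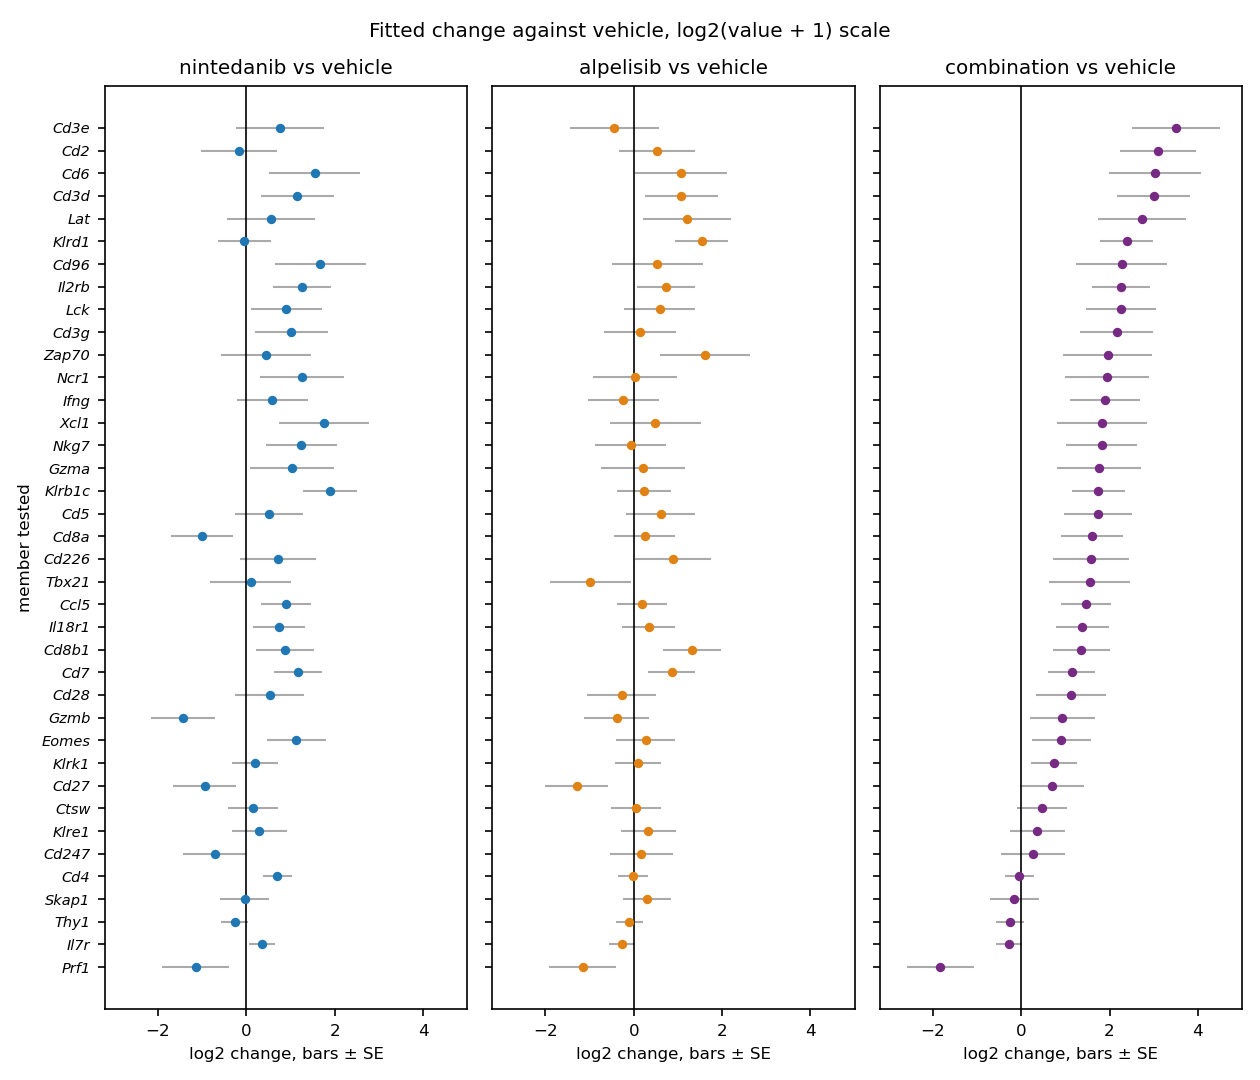
Fitted differences from vehicle (horizontal axes, log2(value + 1) scale, bars ± SE) of the 38 tested members for nintedanib, alpelisib and the combination, ordered by the combination. In the combination 33 of the 38 points lie above 0, against 53.0% of all tested genes, and Prf1 is lowest. With scaling to the human plus mouse total 37 would lie above 0, against 76.2% of all genes. The single drugs lie closer to 0, with 29 and 27 points above it (52.0 and 51.5% of all genes).

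The single drugs were then compared with vehicle. With nintedanib 29 members were above 0, with a median of 0.64, and none was called (0% of all genes), nor by edgeR or by DESeq2, which called 29 of all genes. At an unadjusted p under 0.05 were 3 members (7.89%, against 6.01% of all genes): Klrb1c, Cd7 and Cd4. Klrb1c was 1.89 higher (SE 0.61, limma adjusted p = 0.647), with 17 reads against 2, a ratio of 7.49 between summed reads divided by summed size factors (exact 95% counting interval 1.78 to 66.9). Cd7 was 1.17 higher (SE 0.54, limma adjusted p = 0.804) and Cd4 0.70 higher (SE 0.33, limma adjusted p = 0.819). Without nintedanib 4 the median of the members was 0.26, and over the 16 fits that each left out 1 library between 1 (without vehicle 3 or nintedanib 3) and 6 members (without nintedanib 2) stood at that level.

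With alpelisib 27 members were above 0, with a median of 0.24, none was called by limma (0% of all genes), edgeR or DESeq2, and 1 (2.63%, against 3.26% of all genes) had an unadjusted p under 0.05. That gene was Klrd1, 1.54 higher (SE 0.60, limma adjusted p = 1). Cd8b1 followed at 1.32 (SE 0.65) and Cd27 at −1.30 (SE 0.72, 2 reads against 8), both with an adjusted p of 1 in limma. No member stood at that level without vehicle 4. The median of the members ranged from 0.03 without alpelisib 4 to 0.48 without alpelisib 2, and was 0.09 without vehicle 2.

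Comparing the combination with nintedanib alone gave 31 members above 0 and a median of 0.71. None was called by limma (0% of all genes), edgeR or DESeq2, and 10 (26.3%, against 5.14% of all genes) had an unadjusted p under 0.05, of which Cd4 and Il7r were lower in the combination. Klrd1 differed by 2.43 (SE 0.60, limma adjusted p = 0.939), Cd2 by 3.26 (SE 0.86) and Cd8a by 2.60 (SE 0.70). The median depended on single libraries: it was 0.49 without combination 2, 1.33 without combination 4, 1.23 without nintedanib 4 and 1.07 without combination 1. The number at an unadjusted p under 0.05 was 5 without combination 2, combination 3 or nintedanib 2, and 6 without nintedanib 3. Without combination 4 it was 13.

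Against alpelisib alone the combination had 33 members above 0 and a median of 1.33. None was called by limma (0% of all genes), edgeR or DESeq2, which called 26 of all genes, and 12 (31.6%, against 5.76% of all genes) had an unadjusted p under 0.05, all of them higher in the combination. Cd3e differed most, by 3.95 (SE 1.0, limma adjusted p = 0.583), with 156 reads against 2 and a ratio of 73.2 between summed reads divided by summed size factors (exact 95% counting interval 19.9 to 609.9). Cd2 differed by 2.57, and Cd27 by 2.0, with 42 reads against 2 and a ratio, formed in the same way, of 19.7 (5.13 to 168). The median was 0.89 without combination 2, and the number of members at that level was then 4, as it was without combination 3. Without combination 4 that number was 16. Both of these comparisons share the combination libraries with the comparison against vehicle.

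The 2-by-2 layout also gave the effect of each drug averaged over the presence of the other. For nintedanib 33 members were above 0, with a median of 0.89. None was called by limma, against 17 of all genes or 0.0972%, or by edgeR, while DESeq2 called Il2rb (1.91 higher, adjusted p = 0.00802) among 156 genes (0.892%). At an unadjusted p under 0.05 in limma were 14 (36.8%, against 8.8% of all genes), all higher. Klrb1c had the smallest p and differed by 1.71 (SE 0.43, limma adjusted p = 0.166), followed by Cd3e with 2.36 (SE 0.71) and Il2rb with 1.40 (SE 0.47). Without combination 2 that number was 7, without vehicle 2 it was 9 and without combination 4 it was 20. For Klrb1c the libraries without nintedanib held 6 reads in all and those with it 36.

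For alpelisib averaged over nintedanib 34 members were above 0, with a median of 0.48. None was called by limma (0% of all genes), edgeR or DESeq2, and 7 (18.4%, against 5.28% of all genes) had an unadjusted p under 0.05, of which Il7r was lower. Klrd1 differed by 1.98 (SE 0.42, limma adjusted p = 0.877), Cd2 by 1.89 and Cd8a by 1.42. The median was 0.30 without combination 2 and 0.75 without combination 4, and the number at an unadjusted p under 0.05 was 3 without alpelisib 4, 4 without nintedanib 2 and 11 without combination 4. The departure from additive effects on the log2 scale had a median of 0.46 over the members, with 27 above 0, none called by limma (0% of all genes), edgeR or DESeq2, and 5 (13.2%, against 3.12% of all genes) at an unadjusted p under 0.05. These were Cd2, Cd27, Cd3e, Cd8a and Gzmb, with Cd27 at 2.94 (SE 1.02), Gzmb at 2.75 (SE 1.03) and Cd8a at 2.36 (SE 0.98). The smallest adjusted p of a member was 0.999753 (limma), and the median was 0.10 without combination 2. The number at an unadjusted p under 0.05 was 2 without nintedanib 3, alpelisib 3 or combination 3, and 7 without combination 4. Klrb1c had the smallest p for nintedanib and Klrd1 for alpelisib, and whether the 2 genes differ in their response was not tested.

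Other genes of these cells and their signals were read from lists of named genes. Cxcl9, the interferon-induced chemokine that attracts lymphocytes through Cxcr3, had 78.4, 41.1, 119 and 70.97 with vehicle, 65.3, 24.9, 92.6 and 1453 with nintedanib, 63.3, 70.7, 290.3 and 226 with alpelisib and 146, 1022, 1483 and 189 with the combination. It stood at 1022 to 1483 in nintedanib 4, combination 2 and combination 3 and was at most 290.3 in the other libraries, the same 3 libraries that were highest in the member sum. Its difference from vehicle in the combination was 2.63 (SE 0.92, limma adjusted p = 0.455). Over the 27 tested genes of the cytokine and chemokine list, 23 were above 0 in the combination, with a median of 0.35 and 6 at an unadjusted p under 0.05 in limma. Among all tested genes 53.0% were above 0 and 7.67% stood at that level.

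**Figure D5:**
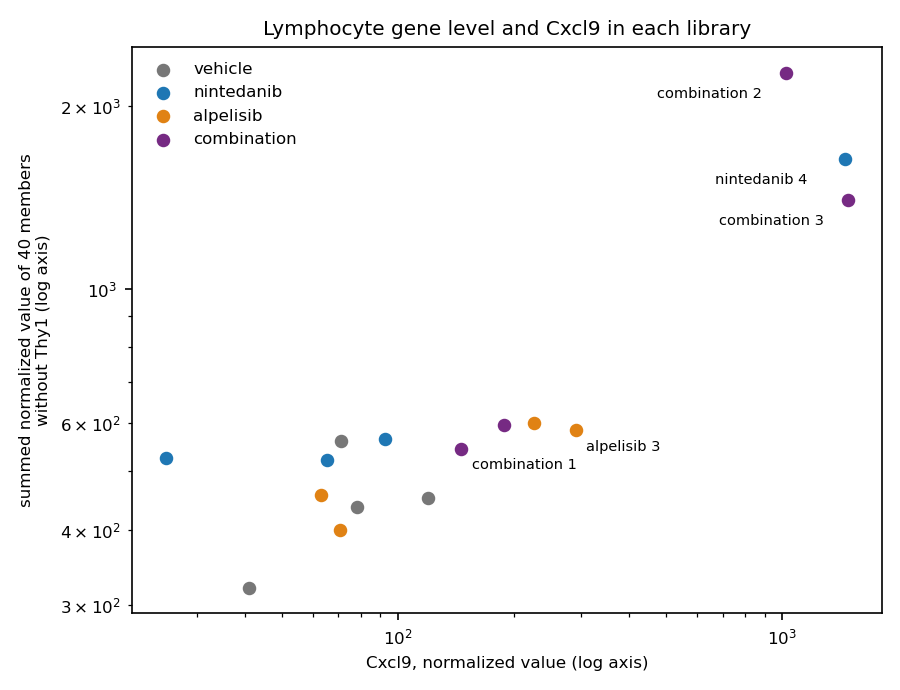
Summed normalized value of the 40 members without Thy1 (vertical log axis) against the value of Cxcl9 (horizontal log axis) in each of the 16 libraries, coloured by group. Nintedanib 4, combination 2 and combination 3 lie apart at the upper right, with Cxcl9 at 1022 to 1483 and sums of 1400.2 to 2270.4; the other 13 libraries have sums of 321 to 601.

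Of the NK receptors and adaptors beyond the members, 21 of 26 tested genes were above 0 in the combination, with a median of 0.56 and 5 at an unadjusted p under 0.05 in limma. The shares over all tested genes were 53.0% and 7.67%. Klra4, Klra6 and Klra8, receptors of the Ly49 family, were listed at 0 in every library. The signalling adaptors Fcer1g, Tyrobp and Hcst, which myeloid cells use as well, differed from vehicle by 0.48 (SE 0.27), 0.38 (SE 0.24) and 0.73 (SE 0.29). Gzmc, a further granzyme, had −0.80 (SE 0.30) in the combination and −0.98 (limma adjusted p = 0.0802) for nintedanib averaged over alpelisib. Its values were 219, 141, 226 and 225 with vehicle, 86.8, 111, 122 and 112 with nintedanib, 212, 277, 149 and 374 with alpelisib and 171, 143, 64.2 and 107 with the combination. The list of exhaustion and inhibitory receptor genes had 5 of 6 genes above 0, against 53.0% of all, and a median of 0.67. Its Lag3 and Havcr2 differed by −0.31 (SE 0.61) and 0.19 (SE 0.27). Tox and the ligand Cd274, also on that list, differed by 0.65 (SE 0.56) and 0.68 (SE 0.47).

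Among T cell genes outside the members, 8 of 14 were above 0 in the combination, near the share of 53.0% over all tested genes, with a median of 0.43. Cd52, a leukocyte surface protein, differed by 0.53 (SE 0.26) and Lcp2 by 0.36 (SE 0.28). Bcl11b and Cd1d1 went the other way, at −0.74 (SE 0.42) and −0.94 (SE 0.62). The innate lymphoid and regulatory T cell list had 6 of 11 above 0, also near that share, and a median of 0.30. Gata3, which T cells share with epithelia, differed by −0.71 (SE 0.44). Of the 8 tested mouse ligands of NK receptors, 5 were above 0, with a median of 0.12, and Cd48, a ligand of Cd244, had 1.41 (SE 0.36, limma adjusted p = 0.227), while Pvr, the ligand of Cd226 and Cd96, differed by 0.12 (SE 0.26). In these 6 lists no gene passed the adjusted threshold in any of the 8 comparisons.

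Summed B cell and plasma cell markers were 34.1, 36.1, 27.8 and 77.8 with vehicle, 63.4, 107, 45.7 and 101 with nintedanib, 65.2, 43.7, 78.00 and 87.7 with alpelisib and 83.6, 150.2, 94.04 and 77.04 with the combination. Vehicle 1, 2 and 3 were lowest and combination 2 was highest. All 8 tested genes of that list were above 0 in the combination (median 1.21), against 53.0% of all tested genes. The B cell factor Pax5 had 1 read in all, in nintedanib 4. Summed lymph node stroma markers were 101, 59.7, 78.5 and 54.6 with vehicle, 174, 140.2, 272 and 202 with nintedanib, 79.3, 61.3, 110.1 and 121 with alpelisib and 104, 650.4, 264 and 313 with the combination, with combination 2 highest and Ccl21a at 0 in every library. In that list Cxcl13, a chemokine for B cells and follicular T cells, was called for nintedanib averaged over alpelisib (2.41 higher, limma adjusted p = 0.0057). Summed macrophage markers ranged from 12645 to 24914 with vehicle and from 12291 to 38448 with the combination, where combination 2 was the highest library of all. The dendritic cell list was at 536 to 974 with the combination and at 596 to 808 with vehicle. The part of these cells in the members' values was not tested. The 4 pan-leukocyte genes differed from vehicle in the combination by 1.09 (Cd53, SE 0.27, limma adjusted p = 0.227), 0.41 (Ptprc, or CD45, SE 0.22), 0.20 (Coro1a, SE 0.20) and 0.01 (Laptm5, SE 0.16). With nintedanib alone Ptprc differed by 0.83 (SE 0.22, limma adjusted p = 0.434) and Cd53 by 0.82 (SE 0.27, limma adjusted p = 0.647).

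Because reads were assigned to 2 species, the human orthologues of the members were read in the human table. Of 40 with a row, 21 had a mean under 1 and 16 a mean from 1 to 50, and IL7R, CCL5 and THY1 were above 50. Human CCL5 had 803, 790.0, 706 and 913 with vehicle, 599, 364, 1586 and 581 with nintedanib, 1086, 935, 1219 and 826 with alpelisib and 843, 490.3, 1449 and 594 with the combination. In nintedanib 4 and combination 2, where mouse Ccl5 was highest, human CCL5 was below the vehicle range, and in combination 3 both were high. How reads that fit both genomes were assigned is not given in the sources used here. A share of reads from the other species was therefore not tested for any member. For most members the mouse mean was the higher, each in the units of its own table. The human mean was higher for KLRD1 (17.2 against 5.55), LAT (39.8 against 7.39) and CD28 (25.1 against 6.53), among others. Human KLRD1 and mouse Klrd1 were both highest in combination 3 (58.9 and 19.5). In combination 2 they stood at 8.76 and 18.3.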

How the data were processed

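RNA of the xenograft tumours was measured in 16 libraries by 3' mRNA sequencing (Lexogen QuantSeq, per the labels' protocols). Reads were mapped to mm10 and hg19 with TopHat, per the submitters' processing notes. The counting tool is not given in the sources used here. The authors deposited a normalized signal table per species, and every deposited value was a whole number of reads (tolerance 0.01 read) divided by 1 size factor per library. Log2(value + 1) of genes at 1 or more in at least 4 libraries was fitted with limma 3.58.1 (R 4.3.3, trend) over all 16 libraries, with Benjamini-Hochberg adjustment over all mouse genes, threshold 0.05. The routine was tested on simulated data. edgeR 4.0.16 and DESeq2 1.42.0 were run on the recovered reads, as alternatives beside other filters, scalings, a replicate block and leaving out each library. Intervals cover counting error only.

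Members and lists were chosen with earlier results of these data known. Values per library are given for members past the threshold, the 12 with the highest mean and the defining markers. They are also given for Cd2, Klrd1 and Cd27, which were added for their small p in a comparison. Fold changes are given for the 3 members with the smallest p per comparison, and other members and genes are described by ranges. From each of 6 lists the 4 genes with the highest mean could be named. Cxcl13, Pax5, Ccl21a, the 4 pan-leukocyte genes, Cd3e against vehicle and the Ly49 receptors at 0 were singled out after their values were seen. Replicate numbers in the titles did not pair the libraries: the 24 same-number pairs had a mean correlation of −0.03 (−0.29 to 0.17, 3 above 0.1). The tables' columns named BYL were matched to the alpelisib titles through the series' design text.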

Additional observations from a re-analysis of the deposited data

Results flagged for a closer look

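In 15 of 100 member-by-group sets of 4 libraries, 1 library was set apart from the other 3 by a gap above Dixon's 95% limit. Of these, 8 were in the library nintedanib 4, above the other nintedanib libraries, with Cd3d at 34.3, Cd3e at 38.7, Cd3g at 9.95, Cd247 at 35.4, Il2rb at 158, Nkg7 at 174, Klrk1 at 68.6 and Ifng at 8.85. In the alpelisib group Cd3e stood apart at 2.08 (replicate 2), Cd4 at 114 (replicate 3), Gzmb at 8.62 (replicate 4) and Ctsw, below the others, at 7.28 (replicate 2). Prf1 stood apart at 5.07 in combination 4. With vehicle, Klrb1c was at 2.73 in replicate 4 and Ifng at 0.922 in replicate 1, the others being at 0. The values of Cd3e with alpelisib and of Klrb1c and Ifng with vehicle rest on 1 or 2 reads. Dixon's limit assumes independent normal values. The sets share libraries, and 3 values of 0 beside any read always pass it, so no chance rate is given for the 15 sets.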

How the results depend on the processing

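Most members rest on few reads, which widens the counting intervals of Klrb1c, Cd3e and Cd27, and 3 libraries hold the highest value of 34 of the 38 tested. No member median, and none of the differences given for the 3 members with the smallest p per comparison, changed sign under any alternative run; differences of other genes and lists were not recomputed. DESeq2 on the recovered reads called 3 members in the combination against vehicle and 1 for nintedanib averaged over alpelisib, where edgeR and limma called 0. Without the 2 muscle-rich libraries 2 members were called in the combination against vehicle (24 of 17095 genes), and the median difference was 1.57 for the combination against nintedanib, 1.17 for the departure from additivity, 0.84 for alpelisib averaged over nintedanib and 0.26 for nintedanib, which had 1.04 with edgeR and 1.07 with DESeq2. The cause was not tested. With a replicate block 0 members were called in each of the 8 comparisons, and the genes called in all were 3 for the combination against vehicle (9 without the block) and 12 for nintedanib averaged over alpelisib (17). Genes called by other tools were 75 (DESeq2) and 7 (edgeR) for the combination against vehicle and 156 and 12 for nintedanib averaged over alpelisib.

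With 1 library left out in turn 0 members were called in every fit, and the median ranged from 1.29 to 1.92 for the combination against vehicle, 0.26 to 0.89 for nintedanib, 0.03 to 0.48 for alpelisib, 0.49 to 1.33 and 0.89 to 1.54 for the combination against nintedanib and alpelisib, 0.69 to 1.07 and 0.30 to 0.75 for the averaged drugs, and 0.10 to 0.89 for the departure. Scaling to the human plus mouse total moved the median of all genes by 0.29 in the combination against vehicle, where the members' median was then 1.87, and by 0.21 for alpelisib, 0.12 for nintedanib, 0.17 for the combination against nintedanib, 0.10 for nintedanib averaged over alpelisib and 0.19 for alpelisib averaged over nintedanib, with members at 0.43, 0.78, 0.89, 0.99 and 0.64.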
